A study of Mus musculus with 16 samples.

Results

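The oligodendrocyte lineage genes examined here are Olig1, Olig2, Pdgfra, Sox10, Cspg4, Nkx2-2, Gpr17, Ptprz1 and Cnp. They were chosen by gene symbol, and they make up 9 of the 16250 gene symbols found in any of the deposited tables. All 9 were listed for hippocampus and for cortex replicates 1 to 3, and 8 for cortex replicates 4 and 5, whose tables do not list Nkx2-2.

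Oligodendrocytes are the myelin-forming cells of the central nervous system. In the embryonic mouse forebrain their precursors first arise from ventral germinal zones and later from dorsal ones, spread through the tissue while dividing in response to platelet-derived growth factor, and mature mainly after birth. The transcription factors OLIG1, OLIG2, SOX10 and NKX2-2 specify the lineage and drive its differentiation, while PDGFRA and NG2 (the product of Cspg4) mark the precursors, GPR17 marks committed cells before myelination, and CNP is an enzyme of maturing oligodendrocytes. Several of these genes are also used by other cells: Olig1 and Olig2 by ventral progenitors, Pdgfra by meningeal fibroblasts, Cspg4 by pericytes, Sox10 by neural crest derivatives and Ptprz1 by radial glia.

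RNA sequencing of brain tissue from wild-type mice at embryonic day 18.5 compared an enriched environment (EE) with standard habitation (SH). By the title of the series the exposure was prenatal. There were 3 EE and 3 SH libraries from hippocampus, and 5 EE and 5 SH libraries from cortex, deposited as replicates 1 to 3 and 4 to 5 with different gene lists. The labels give neither litters nor the number of fetuses behind a library, so the p-values measure the spread between libraries, which may be technical.

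Values were deposited as FPKM, which counts fragments relative to transcript length and to library size, so levels of different genes can be set side by side per length. Whole reads recovered from the steps of the FPKM values came to 11089926 to 22076330 per library. In cortex replicates 4 and 5 the genes with recovered reads held 90.1 to 91.1% of the summed FPKM, so depth there is understated. Of the members, Nkx2-2 had the fewest reads, 25 to 111 per library where it was listed, and Ptprz1 had 1727 to 12158. Cortex SH replicate 3 stood apart: its FPKM values summed to 511438, against 339726 to 396658 in the other 15 libraries, and its values fell off with transcript length. Choroid plexus lies against the hippocampus, and the 6 genes of its epithelium that every table listed summed to 44.4 to 17010 FPKM in hippocampal libraries and were far higher in EE replicates 1 and 2 and SH replicate 1 than in the other 3. The regional marker Prox1, a dentate gyrus factor, was at 5.67 to 21.5 FPKM in hippocampus and 1.57 to 3.08 FPKM in cortex replicates 1 to 3.

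Olig1 and Olig2 are neighbours on mouse chromosome 16 (GRCm38, GENCODE M21). Olig2 lies at chr16:91225457-91228677 on the plus strand, and Olig1 follows at chr16:91269772-91271933 on the same strand, 41094 bases further on. Cnp lies at chr11:100574904-100591729 on the plus strand. Because Olig2 and Cnp varied with Olig1 between libraries, as described further on, the RefSeq promoter windows (250 bases before to 50 after the annotated start, build GRCm38.p6) of these genes are shown where the table held one. The Olig2 window is chr16:91225300-91225599 and the Cnp window chr11:100574689-100574988, both on the plus strand.
Olig2: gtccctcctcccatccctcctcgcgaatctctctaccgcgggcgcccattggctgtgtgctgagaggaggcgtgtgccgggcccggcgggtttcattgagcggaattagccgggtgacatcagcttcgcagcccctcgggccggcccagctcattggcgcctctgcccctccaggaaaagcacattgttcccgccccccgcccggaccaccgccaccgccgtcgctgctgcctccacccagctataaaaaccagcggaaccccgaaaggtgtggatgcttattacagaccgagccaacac
Cnp: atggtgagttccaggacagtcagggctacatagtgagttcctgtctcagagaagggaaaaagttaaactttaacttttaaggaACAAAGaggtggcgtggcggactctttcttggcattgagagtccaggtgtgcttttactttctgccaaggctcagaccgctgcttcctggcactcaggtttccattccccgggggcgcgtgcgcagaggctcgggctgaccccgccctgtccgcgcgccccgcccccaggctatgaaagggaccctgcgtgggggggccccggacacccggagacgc
The capitals in the Cnp window mark ACAAAG, a core sequence that SOX proteins can bind. It was searched on both strands (ACAAAG or CTTTGT), occurs once in the Cnp window and nowhere in the Olig2 window, and is found in 18.7% of the 32851 RefSeq promoter windows of the same length. The E-box CAGCTG, which reads the same on both strands and is of the kind that basic helix-loop-helix factors such as the OLIG proteins can bind, occurs in neither window and in 16.3% of all windows. Such matches describe the letters of the window and are not evidence of binding.

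Across the 16 libraries, the members spanned more than an order of magnitude in level. Ptprz1, a receptor-type protein tyrosine phosphatase of precursors and radial glia, had the highest mean level at 54.8 ± 16.9 FPKM (SD, n = 16), and Olig1 followed at 36.3 ± 8.77 FPKM. Cnp at 14.5 ± 3.13 FPKM, Olig2 at 12.8 ± 2.50 FPKM and Pdgfra at 12.5 ± 4.0 FPKM did not differ beyond their spread. Sox10 averaged 5.48 ± 0.881 FPKM, Gpr17 3.497 ± 1.16 FPKM and Cspg4 2.36 ± 0.390 FPKM. Nkx2-2 stayed mostly below 1 FPKM, with a mean of 0.492 ± 0.0924 FPKM in hippocampus and 0.846 ± 0.283 FPKM in cortex replicates 1 to 3 (SD, n = 6 each). Later genes of the lineage differed in level. Myrf, the transcription factor that switches on myelin genes, averaged 0.272 ± 0.107 FPKM in hippocampus and 0.287 ± 0.0676 FPKM in cortex replicates 1 to 3 (SD, n = 6 each). Over the 10 cortex libraries Mbp averaged 5.76 ± 0.646 FPKM and Cldn11, which meninges also express, 24.8 ± 7.23 FPKM (SD), above Gpr17 and Cspg4. The tables listed 12 of the 15 myelin genes looked up, but not Mog, Mobp or Opalin.

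**Figure D1:**
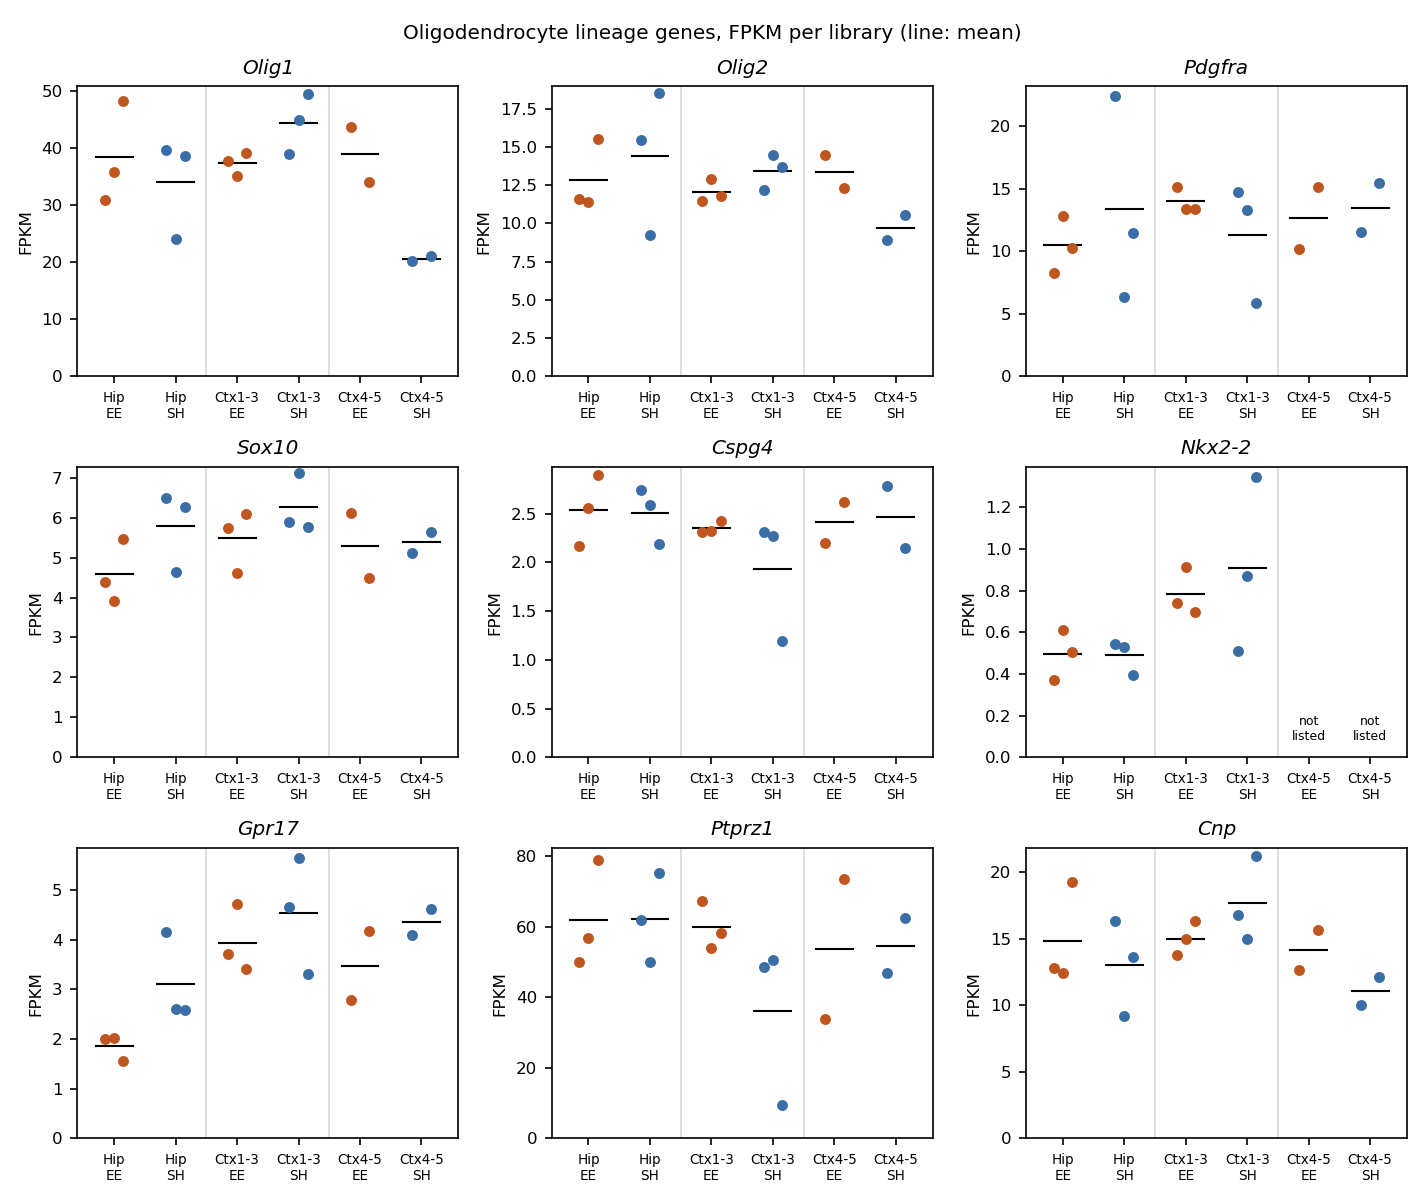
FPKM of each of the 9 members in every library (points, orange for EE and blue for SH) with the group mean (line), for hippocampus, cortex replicates 1 to 3 and cortex replicates 4 and 5. Olig1 in cortex replicates 4 and 5 lies at 34.1 and 43.7 FPKM in EE and at 20.2 and 21.0 FPKM in SH, Gpr17 is lowest in hippocampal EE, and the lone low Ptprz1 point is cortex SH replicate 3 at 9.52 FPKM.

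Differences between hippocampus and cortex were tested with limma over 12 libraries (replicates 1 to 3, with a term for housing), on log2(FPKM + 1), for genes with a mean of at least 1 FPKM. A gene passed at a p of at most 0.05 after Benjamini-Hochberg adjustment over all genes tested. At that threshold 35.4% of the 13158 genes tested differed between tissues, 24.6% higher and 10.9% lower in hippocampus, and 45.3% had an unadjusted p under 0.05. Among the members 1 of the 8 tested differed, Gpr17, which was lower in hippocampus. The split of the 3233 higher and 1428 lower genes rests on the deposited scale: with median-of-ratios scaling it was 2158 higher and 2232 lower, and the median of all genes shifted by -0.12 (log2).

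Gpr17 encodes a G protein-coupled receptor that appears as precursors commit to differentiation and is lost before they myelinate. In hippocampus it had 1.99, 2.01 and 1.55 FPKM in the EE libraries and 4.15, 2.60 and 2.58 FPKM in the SH libraries. In cortex it had 3.70, 4.71 and 3.40 FPKM in EE replicates 1 to 3 and 4.65, 5.64 and 3.31 FPKM in SH replicates 1 to 3. All 6 hippocampal libraries lay below the cortical mean, and only SH replicate 1 reached into the cortical range. The mean was 2.48 ± 0.909 FPKM in hippocampus and 4.24 ± 0.918 FPKM in cortex (SD, n = 6 each), a log2 difference of -0.61 (SE 0.14, adjusted p = 0.00556). Leaving out any 1 library gave -0.70 to -0.54 with adjusted p of 0.000728 to 0.016. Without the 3 hippocampal libraries rich in choroid plexus genes the difference was -0.73 (adjusted p = 0.0145). Within the EE libraries alone it was -0.79 (adjusted p = 0.00282). Within the SH libraries alone it was -0.43 and did not pass (adjusted p = 0.261). In bulk tissue, fewer cells of a type and less RNA per cell cannot be told apart.

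The other 7 members tested did not pass between the tissues. Olig1 averaged 36.2 ± 8.23 FPKM in hippocampus and 40.9 ± 5.26 FPKM in cortex, with a log2 difference of -0.19 and a 95% interval of -0.51 to 0.13. Olig2 averaged 13.6 ± 3.45 FPKM in hippocampus and 12.7 ± 1.18 FPKM in cortex, with a difference of 0.06 that turned to -0.07 under median-of-ratios scaling. Both tissues thus held these lineage factors at levels that overlapped library by library. For Sox10, the factor that acts with OLIG2 on oligodendrocyte genes, the difference was -0.16 (interval -0.40 to 0.08), and for Cnp it was -0.23 (interval -0.57 to 0.10). For the 2 precursor surface genes the differences were -0.12 (interval -0.71 to 0.46) in Pdgfra and 0.18 (interval -0.07 to 0.43) in Cspg4. Ptprz1 stood at 62.1 ± 12.4 FPKM in hippocampus and 48.0 ± 20.01 FPKM in cortex, a difference of 0.55 (interval -0.22 to 1.31) that came to 0.15 without cortex SH replicate 3. Nkx2-2, a homeodomain factor of differentiating oligodendrocytes, fell below the minimum of 1 FPKM. Tested without that minimum it was lower in hippocampus by -0.30 (SE 0.10, adjusted p = 0.0296). Cortex SH replicate 3 had 1.34 FPKM of Nkx2-2, against a mean of 0.691 FPKM in SH replicates 1 and 2. This call was not tested without that library.

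**Figure D2:**
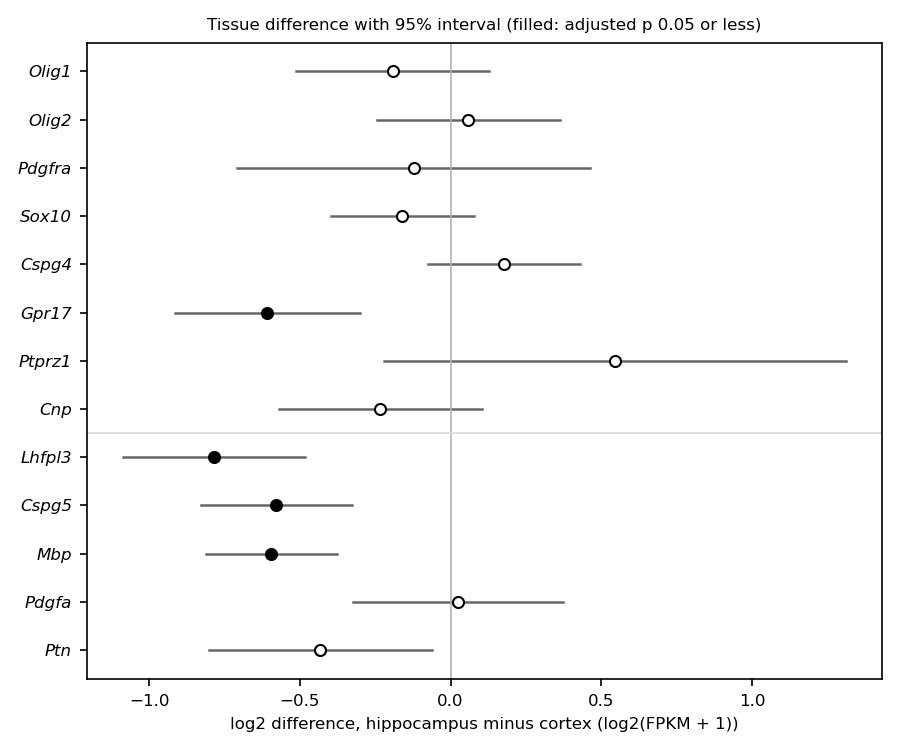
Log2 difference between hippocampus and cortex (points, 12 libraries, limma on log2(FPKM + 1)) with its 95% interval, for the 8 tested members above the line and for other genes of the lineage and the ligands Pdgfa and Ptn below it. Filled points pass the threshold: among the members this is Gpr17 at -0.61, and below the line Lhfpl3, Cspg5 and Mbp lie between -0.79 and -0.58.

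Other genes of the lineage were counted by list, beside 24.6% of all genes tested higher and 10.9% lower in hippocampus. Of the 7 myelin genes tested, 4 were lower in hippocampus and 0 higher, with a list median of -0.58 against 0.09 over all genes. Mbp, which encodes myelin basic protein, had 2.96, 3.49 and 4.35 FPKM in EE hippocampus and 3.97, 3.33 and 3.03 FPKM in SH hippocampus. In cortex it had 5.76, 6.501 and 7.01 FPKM in EE replicates 1 to 3 and 5.11, 5.55 and 5.01 FPKM in SH replicates 1 to 3. The tissues did not overlap in Mbp, as was the case in the lower direction for 5.5% (and in the higher one for 14.9%) of all genes tested, and the log2 difference was -0.59 (SE 0.10, adjusted p = 0.000726). Cldn11, the tight junction gene of myelin, and Pllp, which encodes plasmolipin, were also lower, at -2.09 and -0.58. Cldn11 had 0.747 to 16.1 FPKM over the hippocampal libraries and 23.6 to 37.3 FPKM over cortex replicates 1 to 3. Cortex replicates 4 and 5, outside this fit, had 12.7 to 30.8 FPKM, which overlaps hippocampus. Cldn11 is also expressed in meninges. The sum of 12 meningeal fibroblast genes was 59.5 to 390 FPKM over the hippocampal libraries. It was 272 to 396 FPKM over cortex replicates 1 to 3 and 199 to 346 FPKM over replicates 4 and 5. The part of meningeal RNA in the result was not tested.

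Of 17 tested genes enriched in precursors other than the members, 2 were lower and 1 higher in hippocampus. Over all genes tested 10.9% were lower and 24.6% higher. Lhfpl3, a tetraspan-like membrane gene of precursors, averaged 6.25 ± 1.26 FPKM in hippocampus and 11.5 ± 2.16 FPKM in cortex (SD, n = 6 each), a difference of -0.79 (SE 0.14, adjusted p = 0.00105). Cspg5, which encodes the proteoglycan neuroglycan C, averaged 58.1 ± 8.60 FPKM in hippocampus and 87.2 ± 12.8 FPKM in cortex, a difference of -0.58 (SE 0.12, adjusted p = 0.0022). Of 11 tested genes of committed and premyelinating cells, 3 were higher and 1 lower: Tns3 at 0.62, Nfasc at 0.62 and Sirt2 at 0.19 against Rras2 at -0.48. Median-of-ratios scaling changed that last count to 2 higher and 3 lower. Which cells held the RNA of the genes in these lists, the myelin list included, was not tested. Within the SH libraries alone, where 518 genes passed in all, Mbp (-0.49), Lhfpl3 (-0.64) and Cspg5 (-0.68) kept their signs but none passed, at adjusted p of 0.085 to 0.116.

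Of the genes for signals that act on the lineage, 12 of 22 tested were higher in hippocampus and 0 lower on the deposited scale. The shares of all genes tested on that scale were 24.6% higher and 10.9% lower. After median-of-ratios scaling 10 of the list were higher and 2 lower. The nuclear factor genes Nfia and Nfib, which promote gliogenesis, were higher by 1.47 and 1.41, at 17.7 ± 2.99 and 62.9 ± 11.7 FPKM in hippocampus and 5.69 ± 0.491 and 22.8 ± 2.99 FPKM in cortex (SD, n = 6 each). Smo, the transmembrane transducer of hedgehog signals, was higher by 0.86, and Tnc, which encodes the matrix protein tenascin-C, a binding partner of PTPRZ1, by 1.299 (adjusted p = 0.000201). Of genes picked from this list after their values were seen, Gli1, Gli2 and Gli3 were higher by 0.84, 0.80 and 1.17, and Ptch1 was at 0.19 and did not pass. Mdk, the gene of midkine, a ligand of PTPRZ1, was picked in the same way and was higher by 0.93 (adjusted p = 0.00432). Pdgfa, the growth factor read by PDGFRA, differed by 0.03 (adjusted p = 0.917) and did not pass. Ptn, the gene of pleiotrophin, another ligand of PTPRZ1, had 110 to 237 FPKM over the hippocampal libraries and 211 to 281 FPKM over the cortical ones, a difference of -0.43 (adjusted p = 0.0664) that passed after median-of-ratios scaling at -0.57 (adjusted p = 0.0221).

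Markers of other cells that use the members were also counted, beside 24.6% of all genes tested higher and 10.9% lower in hippocampus. Of 15 tested genes of radial glia and astrocytes, 9 were higher and 2 lower in hippocampus, with Gfap higher by 2.0 and Hopx by 2.29. Of 10 tested ventral GABA genes, 8 were lower and 1 was higher, with Dlx5 at -1.16 and Gad2 at -0.96. The 10 genes of that list found in every table, from cells that can also express Olig1 and Olig2, summed to 79.5 to 124 FPKM over hippocampus and 144 to 170 FPKM over cortex, without overlap. Of 12 meningeal genes, 5 were lower and 0 higher, and of 11 pericyte genes, 2 were lower and 1 higher. The lists share genes: the higher ventral GABA gene is also the higher precursor gene, and the higher pericyte gene is also a signal gene. Of 8 Schwann cell and neural crest genes, 3 were listed in any table, and of the 2 tested Mia was higher in hippocampus by 3.02 and Ngfr was at -0.43 and did not pass, with 1 higher and 1 lower after median-of-ratios scaling. The choroid plexus list gave 3 higher and 0 lower of 12. For the regional lists, 8 of 9 hippocampal genes were higher with 1 lower, and 6 of 10 cortical genes were lower with 2 higher. What part these cells had in the levels of the members was not tested.

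EE was compared with SH in hippocampus over 6 libraries. No gene of 13344 passed (0%), and none of the 8 members tested. Without adjustment 503 genes (3.77%) had a p under 0.05, and 0 passed in a limma-voom fit to recovered reads. The members' log2 differences, EE minus SH, ran from -0.51 to 0.18 with a median of -0.07, against -0.01 over all genes. The largest in size was in Gpr17, whose 3 EE values of 1.55 to 2.01 FPKM all lay below the 3 SH values of 2.58 to 4.15 FPKM. Such separation was seen in the lower direction in 7.32% of all genes tested and in the higher one, where no member had it, in 2.59%. The difference of -0.51 (SE 0.18, unadjusted p = 0.0274, adjusted p = 0.9996) did not pass, and without SH replicate 1 it was -0.34. The test of whether this difference was another in hippocampus than in cortex gave -0.36 (SE 0.28, adjusted p = 0.537).

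The remaining hippocampal members overlapped between EE and SH. Olig1 had 30.9, 35.8 and 48.3 FPKM in EE and 39.6, 24.1 and 38.6 FPKM in SH, a difference of 0.17 (95% interval -0.37 to 0.72). Olig2 had 11.6, 11.4 and 15.5 FPKM in EE and 15.5, 9.22 and 18.5 FPKM in SH, a difference of -0.12 (interval -0.70 to 0.46). In both genes SH replicate 2 was the lowest of the 6 libraries, and the highest one was EE replicate 3 for Olig1 and SH replicate 3 for Olig2. Sox10 had 4.39, 3.90 and 5.46 FPKM in EE and 6.48, 4.64 and 6.26 FPKM in SH, a difference of -0.28 (interval -0.67 to 0.11), and all 3 EE values lay below the SH mean. Cspg4 and Ptprz1 differed by 0.01 and -0.02, and Cnp by 0.18. Nkx2-2, outside the minimum level, was at 0.369 to 0.609 FPKM in EE and 0.394 to 0.543 FPKM in SH.

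Pdgfra, the receptor through which precursors read PDGF-A, varied most relative to its mean among the hippocampal libraries. It had 8.27, 12.9 and 10.3 FPKM in EE and 22.4, 6.36 and 11.5 FPKM in SH, so that SH replicates 1 and 2 were the highest and the lowest. The difference of -0.19 (interval -1.11 to 0.73) turned to 0.24 without SH replicate 1. Meningeal fibroblasts express Pdgfra too, and the 12 meningeal genes, all above 0 in every library, summed to 99.2, 328 and 181 FPKM in EE and to 390, 59.5 and 161 FPKM in SH. The 6 libraries stood in the same order by this sum as by Pdgfra, except for EE replicate 3 and SH replicate 3, whose neighbouring places were exchanged. Dcn, a defining fibroblast gene, was at 13.6 to 34.9 FPKM in EE and 15.4 to 35.6 FPKM in SH. The part of meningeal RNA in the Pdgfra level was not tested.

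**Figure D3:**
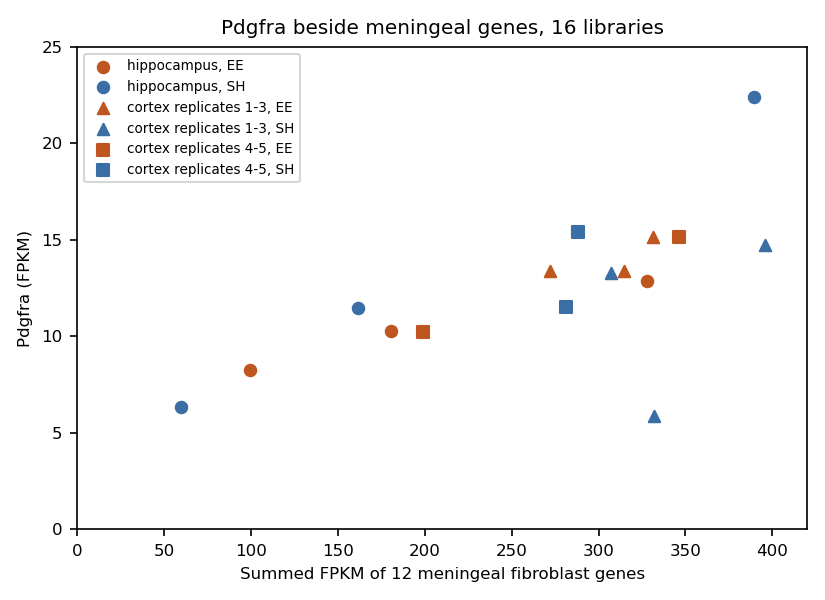
Pdgfra in FPKM against the summed FPKM of 12 meningeal fibroblast genes in 16 libraries, with hippocampus as circles, cortex replicates 1 to 3 as triangles and cortex replicates 4 and 5 as squares, EE in orange and SH in blue. Hippocampal libraries run from 6.36 FPKM Pdgfra at a sum of 59.5 to 22.4 FPKM at 390, and the triangle far below the others is cortex SH replicate 3 at 5.88 FPKM.

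In cortex replicates 1 to 3, EE and SH were compared over 6 libraries, and 0 of 12890 genes passed (0%), members included. Without adjustment 1197 genes (9.29%) had a p under 0.05, and the members' differences ran from -0.24 to 1.02. Olig1 had 37.7, 35.1 and 39.2 FPKM in EE and 39.0, 44.9 and 49.4 FPKM in SH, a difference of -0.24 (interval -0.54 to 0.06). Olig2 had 11.4, 12.9 and 11.8 FPKM in EE and 12.2, 14.5 and 13.7 FPKM in SH, a difference of -0.15 (interval -0.43 to 0.14). For both, every EE library lay below the SH mean but the groups overlapped, and the same was true of Sox10 at -0.16 and Cnp at -0.21. The share of all genes with this pattern was not counted. The longest transcripts of Olig1, Olig2, Sox10 and Cnp are short, at 2162 to 2904 bases, and these libraries carried the length trends given below. Over the 12 alternatives described at the end, Olig1 ran from -0.33 to -0.053 and Olig2 from -0.21 to -0.018. With 1 library left out at a time, Olig1 ran only from -0.33 to -0.16 and Olig2 from -0.21 to -0.095. None of these passed.

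The members with long transcripts depended on cortex SH replicate 3. Ptprz1 had 67.4, 54.0 and 58.1 FPKM in EE and 48.5, 50.6 and 9.52 FPKM in SH. The groups did not overlap, as in 11.2% of all genes tested in the higher direction (18.6% in the lower one, with 0 members), and the difference of 1.02 (SE 0.56, adjusted p = 0.414) came to 0.26 (adjusted p = 0.201) without that library. Pdgfra had 15.2, 13.4 and 13.4 FPKM in EE and 14.7, 13.3 and 5.88 FPKM in SH, a difference of 0.37 that became -0.0029 without it. Cspg4, which encodes the NG2 proteoglycan, had 2.31, 2.32 and 2.43 FPKM in EE and 2.31, 2.27 and 1.197 FPKM in SH, a difference of 0.22 that became 0.03. Gpr17 was at -0.15 with all 6 libraries and at -0.32 (adjusted p = 0.253) without it.

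Set against the mean of SH replicates 1 and 2, SH replicate 3 was lower by a log2 ratio of -2.38 in Ptprz1, -1.25 in Pdgfra, -0.94 in Cspg4 and -0.64 in Gpr17. The longest annotated transcripts of these genes have 8068, 6834, 8121 and 5195 bases. The shorter members had ratios of -0.17 in Sox10, 0.04 in Olig2, 0.24 in Olig1, 0.42 in Cnp and 0.96 in Nkx2-2, with longest transcripts of 2780, 2530, 2162, 2904 and 2120 bases. All 4 members above 5 kilobases were thus lower in this library and 4 of the 5 below 3 kilobases were higher. Over 12384 genes, the rank correlation of a library's deviation from its block mean with transcript length was -0.761 in SH replicate 3. It was 0.444 to 0.644 in EE replicates 1 to 3 and 0.231 to 0.275 in SH replicates 1 and 2. The block mean includes SH replicate 3, whose low values raise the deviations of the other libraries, so these correlations are not independent.

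**Figure D4:**
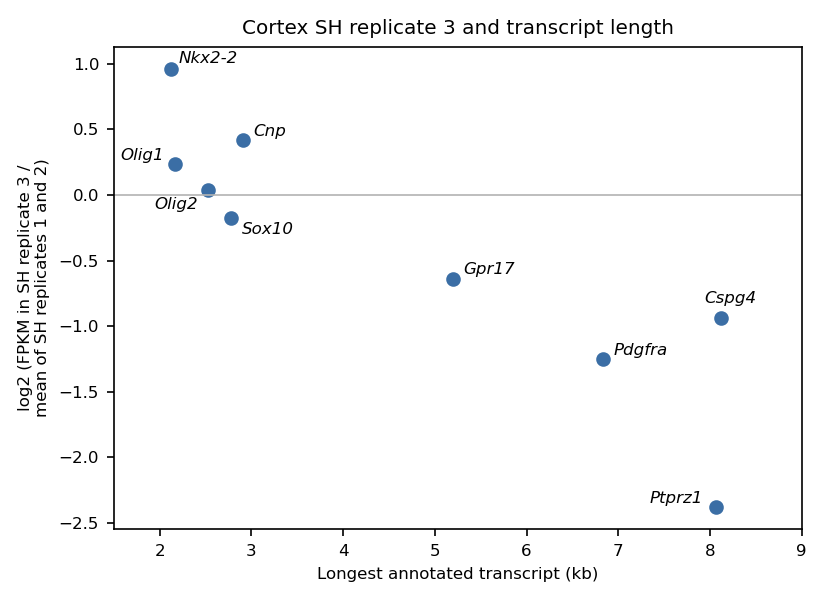
Log2 ratio of FPKM in cortex SH replicate 3 to the mean of SH replicates 1 and 2 for the 9 members, against the length of the longest annotated transcript in kilobases. Ratios run from 0.96 in Nkx2-2 to -2.38 in Ptprz1, and the 4 longest transcripts are the 4 lowest points.

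Cortex replicates 4 and 5 were the only set in which a member passed between EE and SH. Here 435 of 12576 genes (3.46%) passed, 1.67% higher and 1.79% lower in EE, and 17.1% had an unadjusted p under 0.05. Among the 8 members tested 1 passed, Olig1. It had 43.7 and 34.1 FPKM in EE (1183 and 972 reads) and 20.2 and 21.0 FPKM in SH (565 and 563 reads), without overlap. These SH values were the lowest Olig1 values of all 16 libraries. Cortex replicates 1 to 3 had 35.1 to 49.4 FPKM over EE and SH, nearer to the EE values here. The log2 difference was 0.87 (SE 0.21, adjusted p = 0.00335), and the test on recovered reads gave 0.91 (adjusted p = 0.0131). The call rests on a spread shared by all genes, since with 2 libraries a group limma gave each gene the spread of the trend over level (25152 degrees of freedom). It was lost without SH replicate 4 (0.84, adjusted p = 0.631) or without SH replicate 5 (0.90, adjusted p = 0.38), where the lone SH library was taken to vary like the EE ones. The rank correlation of deviation with transcript length was -0.244 and -0.361 in EE and 0.459 and 0.272 in SH. These deviations share 1 block mean, so the values are not independent. With the trend on transcript length removed Olig1 was at 0.77 (adjusted p = 0.0166). The ventral GABA genes summed to 145 to 157 FPKM in EE and 154 to 163 FPKM in SH, and their part in the Olig1 level was not tested.

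Olig2 and Cnp did not overlap between EE and SH in these libraries either, as was true in the higher direction of 21.7% of all genes and in the lower one, with 0 members, of 24.9%. Olig2 had 14.5 and 12.3 FPKM in EE and 8.88 and 10.6 FPKM in SH, a difference of 0.42 (SE 0.22, adjusted p = 0.299). Cnp had 12.7 and 15.7 FPKM in EE and 10.1 and 12.2 FPKM in SH, a difference of 0.32 (SE 0.22, adjusted p = 0.467). Neither passed. Sox10 at -0.03, Cspg4 at -0.02, Pdgfra at -0.09, Ptprz1 at -0.11 and Gpr17 at -0.27 did not pass and overlapped between EE and SH. EE replicate 4 was low in Ptprz1 at 33.8 FPKM, against 73.7 FPKM in EE replicate 5 and 46.8 and 62.4 FPKM in SH. Without EE replicate 5, the highest of the 4 libraries, Ptprz1 was at -0.66 (adjusted p = 0.0101), a value that sets the single EE library against 2 SH libraries and takes it to vary as they do.

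**Figure D5:**
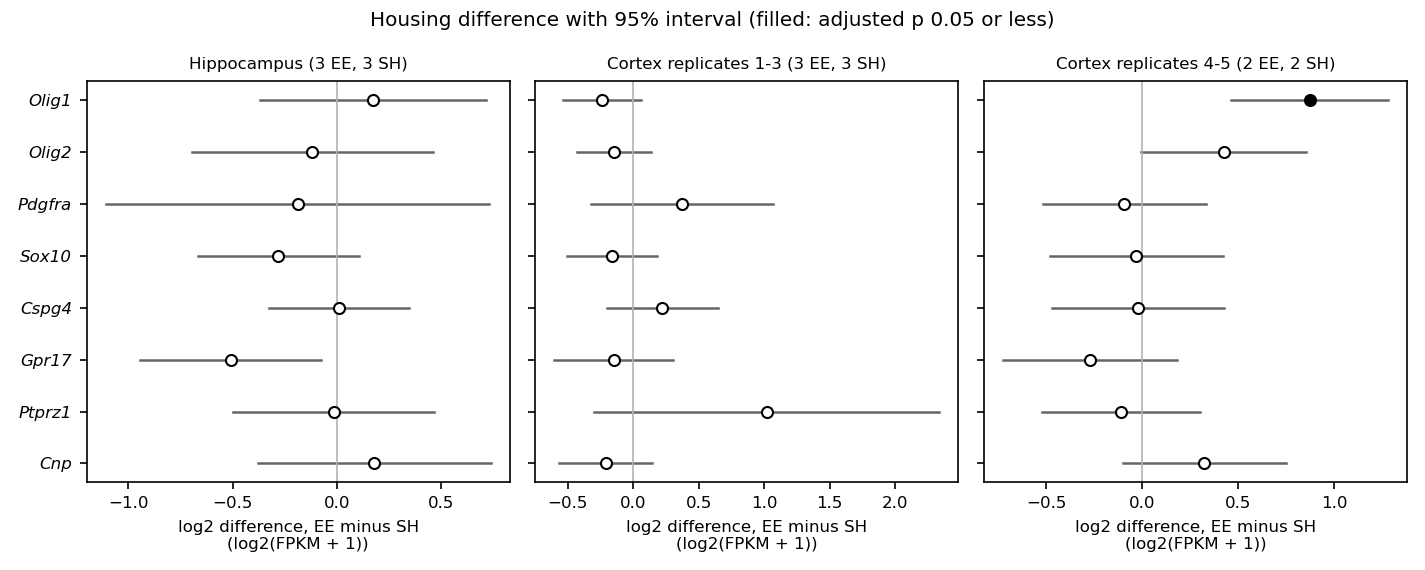
Log2 difference between EE and SH (points, limma on log2(FPKM + 1)) with its 95% interval for the 8 tested members, in hippocampus, cortex replicates 1 to 3 and cortex replicates 4 and 5. The filled point, Olig1 at 0.87 in cortex replicates 4 and 5, is the only one that passes, and Olig1 is at 0.17 and -0.24 in the other panels.

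The sign of the Olig1 difference was not shared by the cortex sets. EE was below the SH mean in 3 of 3 libraries of replicates 1 to 3 and above it in 2 of 2 libraries of replicates 4 and 5. The test of the difference between the sets gave 1.11 (SE 0.20, unadjusted p = 0.000304, adjusted p = 0.251) for Olig1 and 0.57 (SE 0.19, unadjusted p = 0.0139, adjusted p = 0.251) for Olig2. Neither passed over 12539 genes, of which 0 passed and 2434 (19.4%) had an unadjusted p under 0.05. Over all 10 cortex libraries with a term for the set, 1 gene passed (0.00798%), which was no member, and 7.45% had an unadjusted p under 0.05. Olig1 then was at 0.21 (interval -0.23 to 0.64). The members ran from -0.20 in Gpr17 to 0.57 in Ptprz1, and none was apart between EE and SH over all 5 replicates, against 0.606% of genes in the higher direction and 2.02% in the lower one. The EE effect did not pass as different between hippocampus and cortex for any member, at -1.03 to 0.41, and 7.52% of 13158 genes had an unadjusted p under 0.05 there.

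Genes of the lineage beyond the members showed few differences with housing. In hippocampus and in cortex replicates 1 to 3, 0 genes of any list passed. In cortex replicates 4 and 5, Hes5, a Notch effector that holds back oligodendrocyte differentiation, was higher in EE, at 13.1 and 10.97 FPKM in EE and 5.75 and 3.41 FPKM in SH (log2 difference 1.25, SE 0.23, adjusted p = 1.48e-05), and this call was lost without SH replicate 5 (0.94, adjusted p = 0.378). Trf, the transferrin gene of maturing oligodendrocytes, passed as lower by -0.79 (SE 0.21, adjusted p = 0.0113), although its EE values of 6.87 and 30.9 FPKM lay on both sides of the SH values of 25.7 and 27.0 FPKM. Trf is made by choroid plexus too, whose genes Ttr and Clic6 passed there in the opposite direction, as higher in EE, at 2.03 and 0.96. Ttr had 689 and 28.9 FPKM in EE and 32.5 and 35.8 FPKM in SH, so EE replicate 4 alone was high. Trf was lowest in that library, at 6.87 FPKM, and highest in EE replicate 5, at 30.9 FPKM. The part of choroid plexus RNA in these differences was not tested. No gene of the other lists passed in these libraries. Mbp differed by -0.11 there and by 0.04 in hippocampus and passed in neither.

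The FPKM ratio of Olig1 to Olig2 ran from 1.99 to 3.60 over the 16 libraries. It was 2.66, 3.15 and 3.11 in EE and 2.56, 2.61 and 2.09 in SH hippocampus. In cortex replicates 1 to 3 it was 3.30, 2.72 and 3.33 in EE and 3.20, 3.10 and 3.60 in SH, where EE and SH overlapped and the highest value was an SH one. In cortex replicates 4 and 5 it was 3.02 and 2.77 in EE and 2.27 and 1.99 in SH. Of 28 pairs of members, Olig1 with Olig2 and Cspg4 with Ptprz1 had the highest Pearson correlations over the 16 libraries after the mean of each block was taken off, both with Pearson's r of 0.81 and with Spearman's rho of 0.79 and 0.52. By rho, 5 other pairs stood above Cspg4 with Ptprz1, among them Olig1 with Cnp at 0.78 (r of 0.75). These libraries share depth, length trends and cell makeup, and the pair of Cspg4 and Ptprz1 shares long transcripts and the low values of cortex SH replicate 3, so the values are descriptions.

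By the same measure, over 12672 genes and 16 libraries, the genes closest to each member were named. For Olig1 they were Lfng (r 0.89), Bcan (0.89) and Hdac8 (0.88), and for Olig2 they were Tspan7 (0.85), Sft2d3 (0.82) and Olig1 (0.81). Gpr17 was closest to Rhbdd1, Neu3 and Kif18b (0.89 to 0.87), and Sox10 to Fbxo8, Siah2 and Slc35d1 (0.81 to 0.77). Cnp was closest to Slc25a18, Nbl1 and Cdo1 (0.94 to 0.92). The long members Pdgfra, Cspg4 and Ptprz1 had the highest values, while Gpr17, also long, stood below the short Cnp. The closest genes were Serinc3, Atp6ap2 and Ptpn13 for Pdgfra (0.97 to 0.94), Ryr2, 4930402H24Rik and Tln2 for Cspg4 (0.97 to 0.94) and Kif5b, Rab5b and Impad1 for Ptprz1 (0.97 to 0.96). Olig2 was the member with another member among its 3 closest genes.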

How the data were processed

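The authors deposited 1 table per library with gene symbols and FPKM values. Per the submitters' processing notes, the tools were DESeq2, edgeR, StringTie (1.3.4d), HISAT2 (2.0.4) and cutadapt (1.9), on mm10; their roles and the annotation are not given in the sources used here. Unlisted genes were missing, and 1 repeated symbol and 23 symbols turned into dates were left out.

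From the deposited FPKM values, log2(FPKM + 1) was tested with limma 3.58.1 in R 4.3.3 (eBayes with trend, two-sided) over genes listed in every library of a comparison with a mean of at least 1 FPKM, with p-values adjusted by Benjamini-Hochberg over all genes tested. The tissue fit had a housing term and the fit over all cortex libraries a set term, and differences between effects were interaction terms. Whole reads were recovered from the FPKM steps (tolerance 0.003 reads) for 100% of genes in hippocampus and cortex replicates 1 to 3. The share was 99.9% in cortex replicates 4 and 5, where these genes held 90.1 to 91.1% of the summed FPKM. The recovered reads set depth and the limma-voom fits. Fits and recovery were tested on simulated data. Positions and lengths came from GENCODE M21. The members and lists were chosen with earlier results of these data known. Named beside the members were up to 4 genes per list with the smallest unadjusted p, Pdgfa, Ptn, Mbp, Myrf and the 3 genes most like each member; the Gli genes, Ptch1, Mdk and Dcn were named after their values were seen. Some genes that these rules name are not reported here. Alternatives were a pseudocount of 0.1, no minimum level, median-of-ratios scaling, a replicate block, each library left out, EE or SH libraries only, all 16 libraries, no set term and, chosen after seeing the data, limma-voom, removal of a length trend, a block for replicate within treatment, and 3 choroid-rich libraries left out.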

Additional observations from a re-analysis of the deposited data

How the results depend on the processing

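Of the 8 members tested, Gpr17 passed between the tissues under all alternatives except SH libraries only, and Olig1 passed in cortex replicates 4 and 5 except without either SH library. Where a sign turned below, the value of turned sign did not pass, and the cause was not tested. Removing the length trend put Ptprz1 at 0.091 in hippocampus (0.013 under median-of-ratios scaling), Cspg4 at -0.10 in cortex replicates 1 to 3, and Pdgfra at 0.12, Cspg4 at 0.23 and Ptprz1 at 0.14 in replicates 4 and 5, where 215 genes then passed; over all cortex libraries 6 genes passed, and 0 without the set term, and limma-voom put Cnp at -0.0092. Between tissues, 518 genes and 0 members passed with SH libraries only, 2131 genes without the choroid-rich libraries, and 2 members without the minimum level. Olig1 was there at 0.014 with EE libraries only and 0.011 with all 16, Olig2 at -0.071 after scaling, Pdgfra at 0.16 with SH only, and Pdgfa at -0.10 after scaling, -0.15 with SH only and -0.26 without the choroid-rich libraries.

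Leaving out 1 library at a time gave, for EE minus SH in hippocampus, -0.053 to 0.31 for Olig1, -0.39 to 0.079 for Olig2, -0.59 to 0.24 for Pdgfra, -0.061 to 0.088 for Cspg4, -0.20 to 0.13 for Ptprz1 and -0.035 to 0.35 for Cnp. In cortex replicates 1 to 3 it gave 0 to 12 genes, the 12 without SH replicate 3, and -0.0029 to 0.59 for Pdgfra. In replicates 4 and 5 it gave 23 to 1873 genes (997 and 1873 without EE replicates 4 and 5, 33 and 23 without SH replicates 4 and 5), 0 to 2 members, 0.70 to 1.05 for Olig1, -0.36 to 0.17 for Pdgfra, -0.22 to 0.16 for Sox10, -0.15 to 0.11 for Cspg4 and -0.66 to 0.44 for Ptprz1 (the -0.66, without EE replicate 5, passed). Over all cortex libraries it gave 1 to 3 genes (3 without SH replicate 3), -0.0054 to 0.14 for Olig2, -0.044 to 0.31 for Pdgfra and -0.091 to 0.10 for Cnp, and for the difference between cortex sets 0 to 3 genes. Between tissues it gave -0.027 to 0.18 for Olig2, -0.34 to 0.026 for Pdgfra and -0.086 to 0.13 for Pdgfa.

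The labels do not say whether equal replicate numbers pair the libraries. Deviations of EE and SH libraries with the same number correlated at -0.170, -0.556 and 0.364 in hippocampus. They correlated at 0.403, 0.0892 and 0.406 in cortex replicates 1 to 3, and at 0.135 in replicates 4 and 5. There both pairs give 1 value, since 2 libraries of a group deviate from their mean by opposite amounts. These values cannot decide on pairing, as libraries with different numbers were not set beside them. With the replicate block 766 genes passed in replicates 4 and 5, Olig1 still among them (adjusted p = 0.000359), and the block changed no call of a member or of another gene named here. Recovered reads cover counting error only, and Nkx2-2, at 25 to 111 reads, is the member that depth limits most.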
